A study of Homo sapiens with 16 samples.

Results

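The genes described here are 37 human genes whose products trim, tail, protect or degrade the 3′ ends of small non-coding RNAs, or cut the transcripts from which those RNAs are made. They were listed by name and function with earlier results of these data known, and comprise 3 cap subunits, 6 ring subunits and 3 nucleases of the RNA exosome, 4 nuclear exosome cofactors, 5 tailing and trimming enzymes, 2 La family proteins and 14 Integrator subunits. Each matched 1 of the 58787 gene identifiers in the table of counts, and all 37 were among the 14193 genes that passed the filter on low counts. The cells were IMR32, an established human neuroblastoma line that carries amplified MYCN. TPX2, a spindle assembly factor that activates Aurora kinase A, was knocked down with siRNA si45, si46 or si47, and control cells received the non-targeting siRNA siNTC. Each of the 4 groups had 4 libraries, stated to be biological replicates, and the column names give 48 h. All 16 libraries came from IMR32 cells treated with an siRNA, so untreated cells are not part of the comparison, and each siRNA was set against the same 4 control libraries.

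The RNA exosome is a barrel of ring subunits capped by RNA-binding subunits, through which RNA is threaded to the nuclease DIS3. EXOSC10 acts with the nuclear exosome, and DIS3L replaces DIS3 in the cytoplasm. In the nucleus the helicase MTREX delivers RNA to the exosome, either with ZCCHC7 and a tailing enzyme in the TRAMP complex or with ZCCHC8 and RBM7 in the NEXT complex. TENT4A and TENT4B add short tails, PARN and TOE1 remove tails from maturing small RNAs, and USB1 trims and modifies the end of U6 snRNA. SSB (the La protein) binds the terminal uridines of new RNA polymerase III transcripts, and LARP7 protects 7SK RNA. Integrator cuts nascent snRNA transcripts and terminates RNA polymerase II early at many protein-coding genes.

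RNA was measured by QuantSeq, which primes at the poly(A) tail and reads each transcript near its 3′ end. The values therefore describe the polyadenylated mRNA of the 37 genes, and the small RNAs on which their products act were not measured. Library totals ran from 5318159 to 7864343 counts with a median of 5966582, and the tested genes held 99.6% or more of every library's counts. Levels are CPM, counts scaled to a common library size with TMM factors. As 1 transcript gives reads at 1 end, CPM carries no length correction. TPX2 was at 297 to 359 CPM in the control libraries and at 62.2 to 121 CPM in the 12 knockdown libraries. Its log2 fold change for the mean of the 3 siRNAs was -2.01 (SE 0.0886, edgeR adjusted p = 1.13e-15), and the groups did not overlap. All 8 adrenergic neuroblastoma markers were above 1 CPM in every group (summed level 5100 to 6436 CPM), as the label of the line implies. The mesenchymal markers summed to 26.1 to 81.0 CPM with TWIST2 at 0, the 4 epithelial markers to 1.86 to 9.65 CPM, and the 3 leukocyte markers to 0 to 2.57 CPM with CD3E and LYZ at 0. In bulk RNA fewer cells of a type and less RNA per cell cannot be told apart.

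Most of the 37 genes differed little between knockdown and control cells, and 3 passed the test in at least 1 comparison. INTS6, an Integrator subunit, rose, and EXOSC9, a ring subunit, fell for the mean of the 3 siRNAs against siNTC. EXOSC2, a cap subunit, fell under si47. The test was edgeR's quasi-likelihood test with Benjamini-Hochberg adjustment over all genes and a threshold of 0.05. Of the 37 genes 2 passed for the mean of the 3 siRNAs, where 7.14% of all genes tested passed, and 3 passed under si47 (8.11% of the 37), where 9.74% of all genes passed. The 1 member that was higher under si47 stands beside 4.91% of all genes higher, and the 2 that were lower beside 4.83% lower. None passed under si45, where 1.34% of all genes passed, and none under si46, where 3.4% did. At an unadjusted p under 0.05 the 37 genes gave 2 under si45 (11.4% of all genes) and 5 under si46 (15.0%). At that limit 9 passed under si47 (24.3% of the 37), beside 3310 of the 14193 genes tested. For the mean of the 3 siRNAs 4 did (10.8% of the 37), beside 2901 of the genes tested. At an adjusted p under 0.05 DESeq2 called 0 of the 37 under si45 and 1 under si46, beside 2.06% and 4.52% of all genes. These shares lie near or below the share over all genes. The median log2 fold change of the 37 genes was -0.02 for the mean of the 3 siRNAs, with 16 values above 0 and 21 below, beside a median of -0.001 over all genes tested. No difference between 2 siRNAs passed on these genes. None of the 37 passed between si46 and si45 (0.0282% of all genes passed), between si47 and si45 (0.169%) or between si47 and si46 (0.0493%). In the same order DESeq2 called 0.0916%, 1.08% and 0.317% of all genes, and none of the members to which it gave an adjusted p. At an unadjusted p under 0.05 these comparisons gave 3, 2 and 3 members, beside 4.1%, 10.4% and 7.29% of all genes.

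The 95% intervals, which are not adjusted for the number of genes, give the range of changes that these libraries allow for each gene. They do not give the smallest change that the adjusted test would have called. For the mean of the 3 siRNAs the 95% interval of the log2 fold change lay within ±0.5, which is a 1.41-fold change, for 30 of the 37 genes. The other 7 were INTS6, RBM7, DIS3L, INTS5, INTS8, INTS9 and INTS14. Within ±1 lay 36 of the 37, the exception being INTS14. Under si47 alone 19 lay within ±0.5. The median standard error of the 37 genes was 0.106 log2 units, beside 0.15 over all genes tested. The median member stood at 39.5 CPM in control cells, a level above that of 66.6% of the genes tested. SSB at 351 CPM, LARP7 at 326, MTREX at 194, TENT4B at 111 and EXOSC9 at 101 were above 100 CPM. INTS5, INTS8, INTS14, INTS9 and RBM7 were below 10 CPM. The lowest of these, RBM7, had 7 to 26 counts in a control library.

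**Figure D1:**
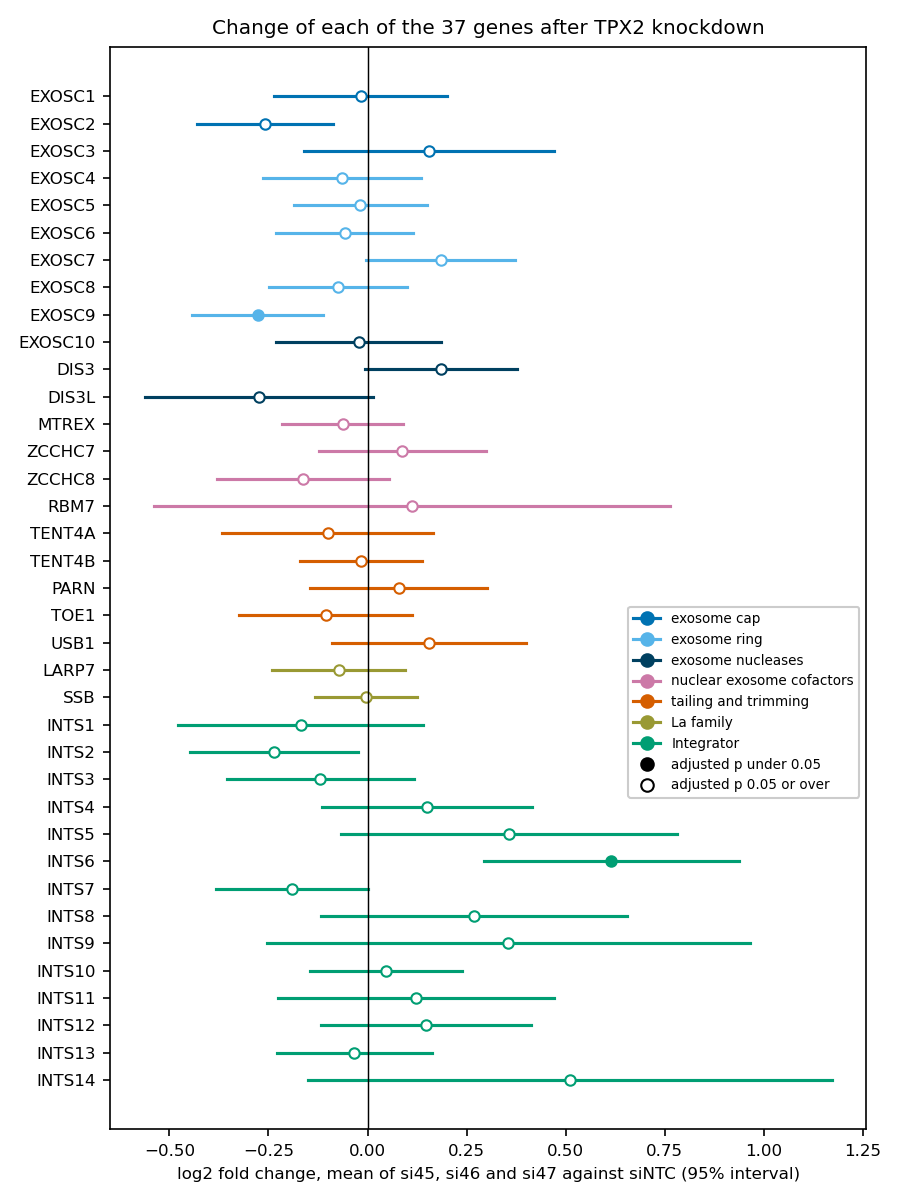
Log2 fold change of each of the 37 genes for the mean of the 3 siRNAs against siNTC (horizontal axis), with 95% intervals from the edgeR fit over 16 libraries; filled points are genes with an adjusted p under 0.05. INTS6 at 0.62 and EXOSC9 at -0.28 are filled, and the values of the other 35 genes lie between -0.28 and 0.51.

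Among the 3 cap subunits, which bind RNA at the mouth of the barrel, EXOSC2 fell under si47 and EXOSC1 and EXOSC3 did not pass the test in any comparison. EXOSC2 (ENSG00000130713, GRCh38 chr9:130693721-130704894, plus strand) stood at 81.4, 78.4, 81.7 and 91.9 CPM in the control libraries. It was at 69.2, 71.7, 87.2 and 81.7 CPM under si45, at 73.6, 69.7, 70.9 and 66.5 under si46, and at 53.4, 58.4, 70.2 and 67.2 under si47. All 8 libraries of si46 and si47 lay below every control library, and with those of si45 the count was 10 of 12. EXOSC2 averaged 83.4 ± 5.92 CPM in control cells (SD, n = 4), 77.5 ± 8.44 with si45, 70.1 ± 2.92 with si46 and 62.3 ± 7.76 with si47. The log2 fold change under si47 was -0.42 (SE 0.105, edgeR adjusted p = 0.00795). It was -0.11 under si45 (adjusted p = 0.771) and -0.25 under si46 (adjusted p = 0.233), and for the mean of the 3 siRNAs -0.26 (SE 0.0844, adjusted p = 0.0560), just above the threshold. The value for the mean passed by DESeq2 (adjusted p = 0.0433) and without si45 replicate 3, si47 replicate 3 or si47 replicate 4 (edgeR adjusted p from 0.0271 to 0.0492). Without si47 replicate 1 the si47 value was -0.35, with an adjusted p of 0.0547. EXOSC1 had a log2 fold change of -0.02 and EXOSC3 of 0.15 for the mean of the siRNAs. The 3 cap subunits summed to 137.2 ± 6.98 CPM in control cells and to 96.2, 91.2 and 85.9% of that under si45, si46 and si47. Without EXOSC2 the sum was 53.8 ± 1.53 CPM in control cells and 101, 102 and 103% of that under the siRNAs.

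EXOSC9, a structural subunit without nuclease activity, was the only one of the 6 ring subunits to pass the test, and it fell for the mean of the 3 siRNAs and under si47. Its levels were 108, 87.6, 102 and 107 CPM in the control libraries, and 74.4, 85.6, 91.4 and 96.1 CPM under si45. Under si46 they were 73.3, 88.6, 82.5 and 83.3 CPM, and under si47 78.6, 74.2, 83.7 and 89.6. The lowest control library, replicate 2 at 87.6 CPM, lay within the range of the knockdown libraries, of which 8 of 12 were below it. The mean was 101 ± 9.28 CPM in control cells (SD, n = 4), 86.9 ± 9.37 with si45, 81.9 ± 6.34 with si46 and 81.5 ± 6.62 with si47. The log2 fold change for the mean of the siRNAs was -0.28 (SE 0.0814, edgeR adjusted p = 0.0308). By siRNA the value was -0.22 for si45 (adjusted p = 0.392), -0.30 for si46 (adjusted p = 0.0961) and -0.31 for si47 (adjusted p = 0.0472). The call on the mean was lost without siNTC replicate 1, 3 or 4, si45 replicate 1, si46 replicate 1, or si47 replicate 1 or 2, with adjusted p from 0.0508 to 0.136. The call under si47 was lost without siNTC replicate 1, 3 or 4, si45 replicate 2 or 4, si46 replicate 3 or 4, or si47 replicate 1, 2 or 3, with adjusted p from 0.0507 to 0.150.

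The annotated 3′ end of EXOSC9 lies inside another gene. QuantSeq reads each transcript near its 3′ end, but the positions of the EXOSC9 reads were not available. EXOSC9 (ENSG00000123737) spans chr4:121801317-121817021 on the plus strand of GRCh38. Its last annotated exon, chr4:121816772-121817021, is 250 bases long and lies wholly within the last exon of CCNA2, chr4:121816444-121817686, on the opposite strand. Another annotated exon of EXOSC9, chr4:121813755-121816447, lies almost wholly outside that CCNA2 exon. CCNA2 encodes cyclin A2, which drives S phase and entry into mitosis. CCNA2 was at 91.2, 84.8, 89.1 and 85.7 CPM in the control libraries and at 61.2 to 81.1 CPM in the 12 knockdown libraries, all of them below every control library. Its log2 fold change was -0.33 for the mean of the siRNAs (SE 0.0860, edgeR adjusted p = 0.0141), and -0.30, -0.33 and -0.35 under si45, si46 and si47. Whether the counting used strand is not given in the sources used here. Without strand, reads from the shared bases cannot be told apart, and the part of CCNA2 reads in the EXOSC9 value was not tested.

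**Figure D2:**
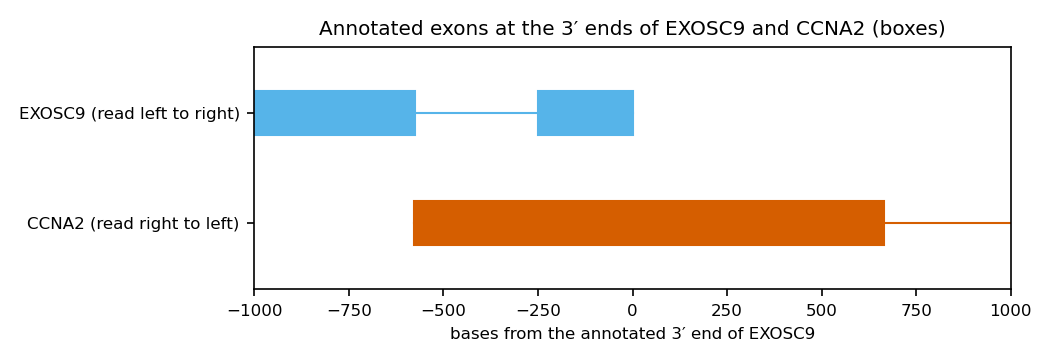
Annotated exons (boxes) and introns (lines) of EXOSC9 and CCNA2 in GENCODE v29, drawn to scale as distance in bases from the annotated 3′ end of EXOSC9 (horizontal axis). The 250-base last exon of EXOSC9 lies inside the last exon of CCNA2, which is read in the opposite direction.

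Such overlap was not confined to EXOSC9, though its share over all genes was not computed. The last exons of 9 members share bases with exons of another gene that averaged at least 10 counts per library. The pairs are DIS3 with BORA, EXOSC8 with SUPT20H, EXOSC9 with CCNA2, INTS11 with PUSL1, INTS3 with SLC27A3, INTS4 with AAMDC, INTS8 with CCNE2, MTREX with PLPP1, and SSB with METTL5. In 8 of the pairs the partner is on the opposite strand, and in 5 it covers at least 50% of the member's last exon. CCNA2 was the only one of the 9 partners that passed the test for the mean of the siRNAs.

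The other 5 ring subunits had log2 fold changes for the mean of the siRNAs between -0.08 (EXOSC8) and 0.18 (EXOSC7, adjusted p = 0.254). EXOSC7 was at 47.4 to 56.1 CPM in control cells and at 56.3 to 70.2 CPM under si47, so all 4 si47 libraries lay above every control library, but at 0.27 (edgeR adjusted p = 0.124) its si47 value missed the threshold. The 6 ring subunits together reached 422.3 ± 22.7 CPM in control cells and 97.9, 93.1 and 94.8% of that under si45, si46 and si47. Without EXOSC9 the shares were 102, 96.9 and 99.3%.

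None of the 3 exosome nucleases passed the test. DIS3L, the cytoplasmic nuclease, had the largest value of the group. It stood at 21.2, 19.4, 21.7 and 23.9 CPM in the control libraries, and at 20.3, 17.7, 24.1 and 16.8 under si45. Under si46 it was at 16.1, 12.4, 21.2 and 17.7 CPM, and under si47 at 13.2, 17.6, 18.0 and 19.1. All 4 si47 libraries were below the lowest control library, while si45 and si46 overlapped the controls. The log2 fold change for the mean of the siRNAs was -0.28 (SE 0.142, edgeR adjusted p = 0.268). DIS3, the main nuclease of the nuclear exosome, had a value of 0.19 (adjusted p = 0.260), with all 4 si46 libraries above the controls. EXOSC10 had a value of -0.02, with a 95% interval from -0.23 to 0.19.

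The 4 nuclear exosome cofactors did not pass the test either. ZCCHC8, the scaffold of the NEXT complex, was at 35.6, 38.2, 36.9 and 39.6 CPM in control cells and at 36.2, 38.1, 26.9 and 37.8 under si45. It was at 33.5, 25.8, 30.5 and 33.7 CPM under si46 and at 37.9, 35.7, 34.8 and 31.8 under si47. Only the si46 libraries lay wholly below the controls. Its log2 fold change for the mean of the siRNAs was -0.16 (SE 0.106, edgeR adjusted p = 0.413). MTREX, the helicase shared by the nuclear pathways, was at 194 ± 18.3 CPM (SD, n = 4) in control cells and at 188 ± 20.8, 184 ± 18.3 and 185 ± 8.95 CPM under si45, si46 and si47. Its interval for the mean of the siRNAs, -0.22 to 0.09, is among the narrower ones. ZCCHC7 of TRAMP had a value of 0.09. RBM7, the RNA-binding subunit of NEXT, had an interval from -0.54 to 0.76, and its low counts leave its direction undetermined.

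Tailing and trimming enzymes gave no call. USB1 was at 31.6, 40.2, 32.9 and 44.2 CPM in control cells and at 40.2, 44.8, 30.7 and 49.0 under si45. It was at 36.1, 32.6, 34.2 and 46.4 CPM under si46 and at 45.9, 48.3, 39.1 and 53.0 under si47. The groups overlapped, although 3 of the 4 si47 libraries were above the highest control. The log2 fold change was 0.16 for the mean of the siRNAs (SE 0.120, edgeR adjusted p = 0.507) and 0.32 under si47 (adjusted p = 0.171). TENT4B, the more abundant of the TRAMP-type tailing enzymes, was at 111 ± 8.97 CPM in control cells and at 107 to 112 CPM in the 3 knockdown means. TENT4A had a value of -0.10, PARN 0.08 and TOE1 -0.11, with adjusted p from 0.637 to 0.747.

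The La family held the most abundant transcripts of the 37, and neither member passed the test. LARP7 was at 361, 286, 363 and 292 CPM in the control libraries and at 265, 261, 378 and 302 under si45. It was at 302, 315, 299.97 and 319 CPM under si46 and at 286, 305, 330.3 and 353 under si47, and the ranges of the groups overlapped. Its log2 fold change for the mean of the siRNAs was -0.07 (SE 0.0827, edgeR adjusted p = 0.678). SSB was at 351 ± 17.6 CPM (SD, n = 4) in control cells and at 346 ± 8.44, 337 ± 21.4 and 369 ± 20.8 CPM under si45, si46 and si47. The SSB interval of -0.13 to 0.12 bounds any change of the mean more tightly than that of any other member.

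For the mean of the 3 siRNAs INTS6 had the largest rise of the 37 genes, and it was the only one of the 14 Integrator subunits to pass the test. INTS6 (ENSG00000102786, GRCh38 chr13:51354077-51454264, minus strand) belongs to the Integrator module that recruits protein phosphatase 2A to RNA polymerase II. Its levels were 63.0, 85.7, 59.6 and 74.6 CPM in the control libraries and 113, 123, 77.2 and 89.5 under si45. Under si46 they were 117, 128, 81.0 and 109 CPM, and under si47 128, 142, 88.0 and 107. Of the 12 knockdown libraries 10 lay above every control library. The exceptions were replicate 3 of si45 and of si46. In all 4 groups replicate 3 was the lowest library and replicate 2 the highest. Control cells averaged 70.7 ± 11.9 CPM (SD, n = 4), against 101 ± 21.1 with si45, 109 ± 20.2 with si46 and 116 ± 23.6 with si47. The log2 fold change for the mean of the siRNAs was 0.62 (SE 0.152, 95% interval 0.29 to 0.94, edgeR adjusted p = 0.0198), a 1.53-fold rise.

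The INTS6 value was above 0 under each siRNA, at 0.51 under si45 (adjusted p = 0.248), 0.62 under si46 (adjusted p = 0.0736) and 0.71 under si47 (adjusted p = 0.0179). Under si46 INTS6 passed by DESeq2, with no filter on low counts, with only the 2 groups compared and with a replicate block. Under si45 it passed with no filter on low counts. Without siNTC replicate 1 or 3 the call on the mean was lost, with adjusted p of 0.0819 and 0.0794. The si47 call was lost without siNTC replicate 1 or 3 or without si47 replicate 1 or 2, with adjusted p from 0.0505 to 0.0574. The last exon of INTS6 shares no bases with an exon of another gene. Its antisense neighbour INTS6-AS1 had a value of 0.73 (adjusted p = 0.241) and its paralog INTS6L one of 0.39 (adjusted p = 0.585), and neither passed the test.

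The other 13 Integrator subunits lay on both sides of 0. For the mean of the siRNAs 8 were positive and 5 negative, from -0.24 for INTS2 (edgeR adjusted p = 0.183) to 0.51 for INTS14 (adjusted p = 0.394). INTS11, the endonuclease that cuts the nascent transcript, had a value of 0.12, and INTS9 and INTS4, its partners in the cleavage module, had 0.36 and 0.15. INTS1, INTS2 and INTS7, large subunits of the complex core, had -0.17, -0.24 and -0.19, and INTS3, which also serves in a single-stranded DNA binding complex, had -0.12. None of these passed. INTS14 under si47 had a value of 0.90 (SE 0.374, adjusted p = 0.144), from 4.49 to 9.46 CPM in control cells and 7.22 to 17.0 under si47. INTS12 was at 15.6 to 21.0 CPM in control cells and at 21.5 to 28.6 under si47, above every control library, with a value of 0.38 (adjusted p = 0.123). Summed over the 14 subunits, Integrator mRNA was at 398.3 ± 24.4 CPM in control cells and at 109, 106 and 113% of that under si45, si46 and si47. Without INTS6 the sum was 327.6 ± 14.9 CPM in control cells and 102, 95.6 and 102% of that under the siRNAs.

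**Figure D3:**
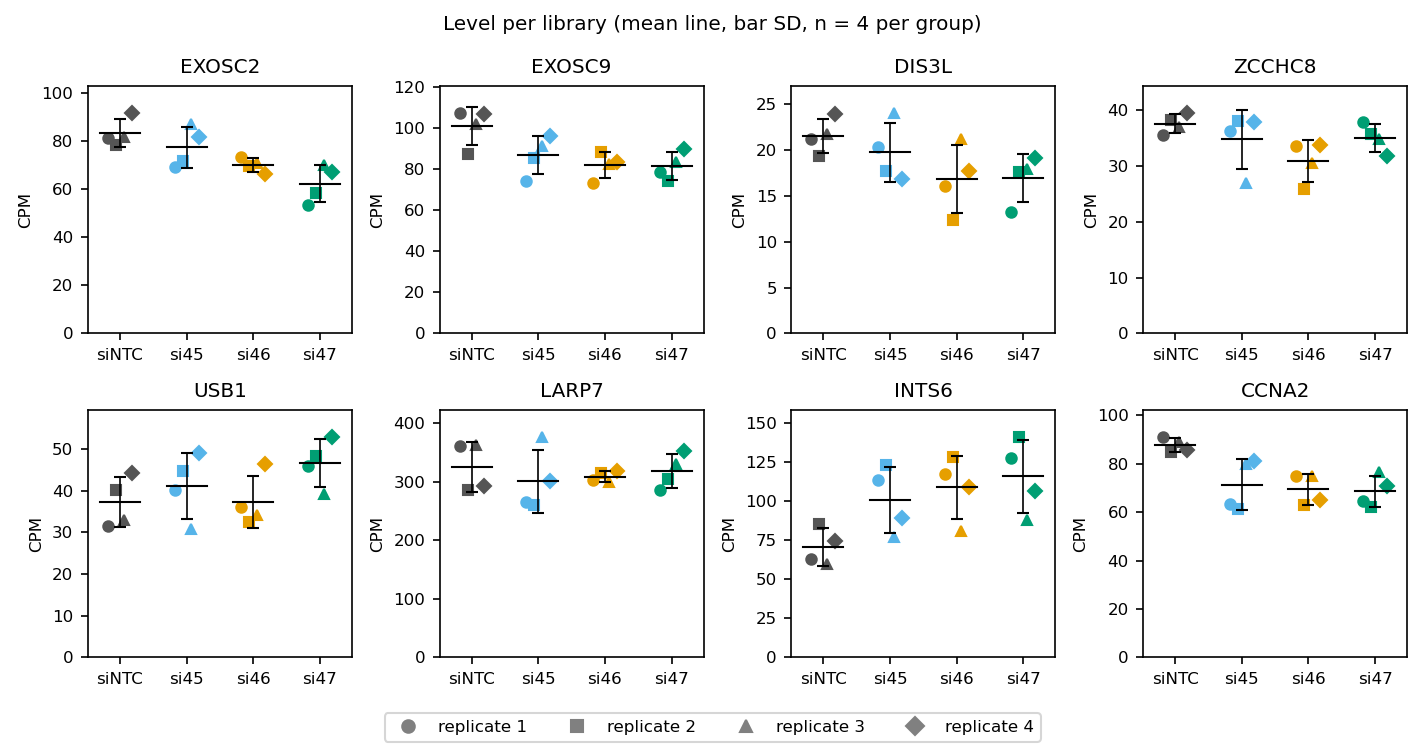
CPM in each of the 16 libraries (vertical axes start at 0) for EXOSC2, EXOSC9, DIS3L, ZCCHC8, USB1, LARP7, INTS6 and CCNA2, by group; symbols mark the replicate number, lines the group mean and bars the SD (n = 4). Of the 12 knockdown libraries, 10 lie above every control library for INTS6, and 10, 8 and 12 lie below every control library for EXOSC2, EXOSC9 and CCNA2.

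**Figure D4:**
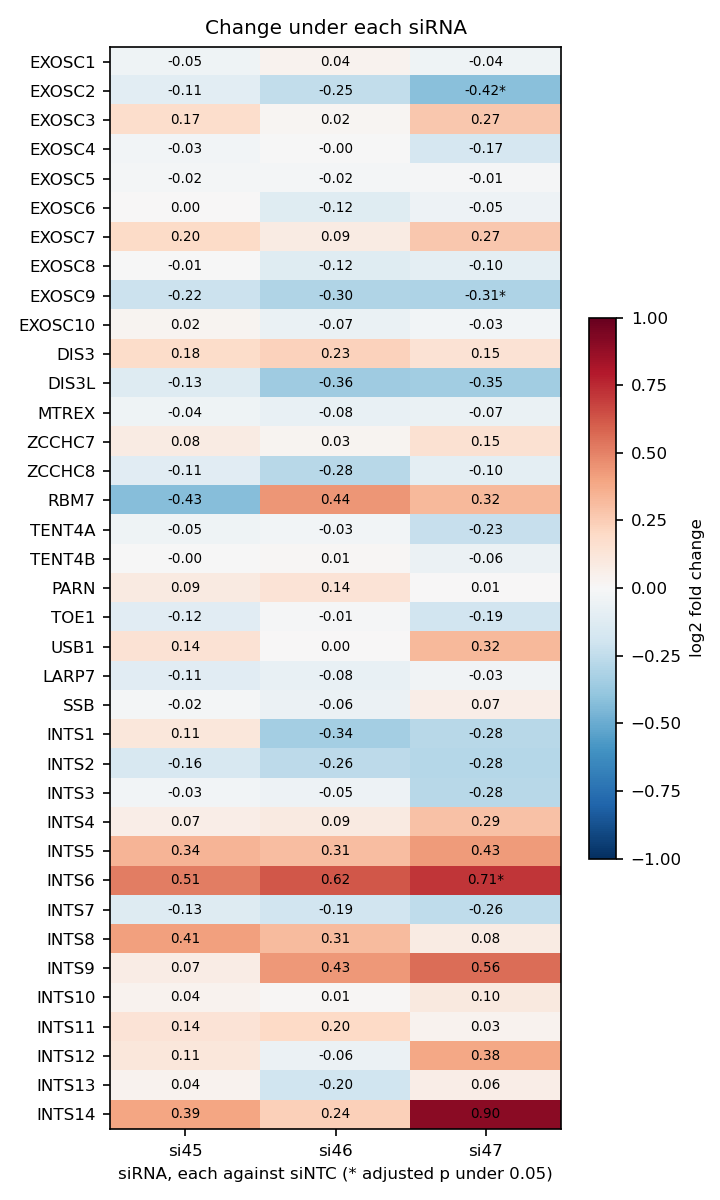
Log2 fold change of each of the 37 genes under si45, si46 and si47, each against siNTC; colour runs from -1 (blue) to 1 (red), numbers give the values and stars mark an adjusted p under 0.05. The 3 starred values are all under si47, at -0.42 for EXOSC2, -0.31 for EXOSC9 and 0.71 for INTS6.

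No member separated all 12 knockdown libraries from all 4 control libraries in either direction, where 1.49% of all genes tested did so upward and 1.03% downward. Under si47, EXOSC7, INTS6 and INTS12 lay above all controls (7.41% of all genes did) and EXOSC2 and DIS3L below (6.98%). Under si46, DIS3 lay above (5.06%) and EXOSC2 and ZCCHC8 below (4.67%), and under si45 no member lay wholly on either side (3.36 and 2.95%). These counts are close to or below the share over all genes. Summed over the 37 genes, the level was 2265 ± 48.1 CPM (SD, n = 4) in control cells and 99.7, 97.5 and 100.5% of that under si45, si46 and si47.

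**Figure D5:**
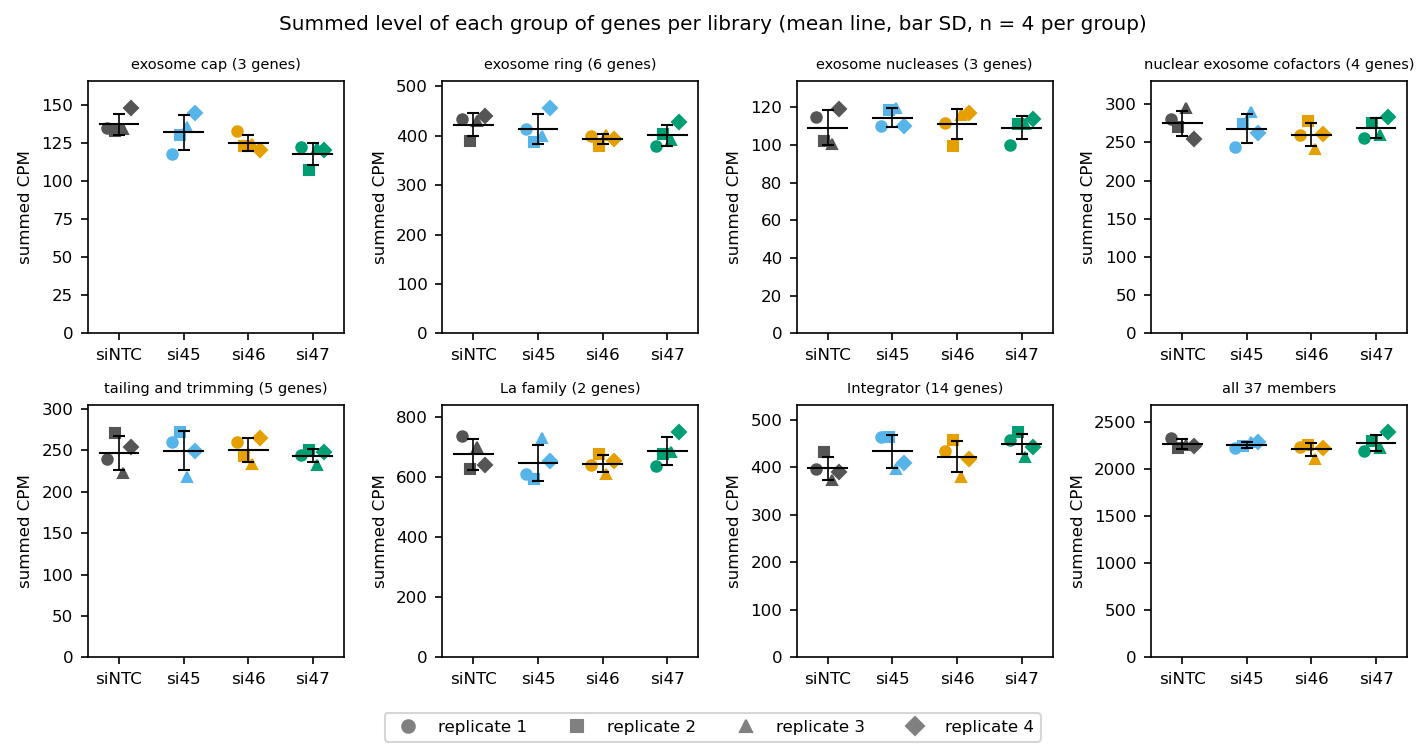
Summed CPM per library (vertical axes start at 0) for the genes of each role and for all 37, by group; symbols mark the replicate number, lines the group mean and bars the SD (n = 4). The sum over all 37 genes is 2265 CPM in control cells and 2258, 2208 and 2276 CPM under si45, si46 and si47.

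Beyond the 37 genes, 52 others of the same pathways were followed, covering 19 exosome adaptors and Ski complex genes, 17 other exonucleases and tailing or end-modifying enzymes, 7 Integrator partners and 9 genes of snRNA gene transcription. For the mean of the 3 siRNAs 1 was higher and 1 lower, beside 3.61% and 3.53% of all genes tested, and the median log2 fold change of the 52 was 0.002. The higher gene was ZFC3H1 (chr12:71609472-71667725, minus strand), which links MTREX to polyadenylated nuclear RNA in the PAXT connection. ZFC3H1 was at 71.2, 69.9, 69.4 and 64.4 CPM in the control libraries, at 83.5, 91.6, 75.1 and 68.1 under si45, at 79.9, 118, 84.0 and 86.2 under si46, and at 111, 109, 78.8 and 101 under si47. In 11 of 12 knockdown libraries it was above every control library. Its log2 fold change was 0.39 for the mean of the siRNAs (SE 0.10, edgeR adjusted p = 0.0126), and it passed under si46 (0.42, adjusted p = 0.0448) and si47 (0.54, adjusted p = 0.00287). Without siNTC replicate 4 its adjusted p for the mean was 0.0674. The si46 call was lost without any 1 siNTC library, si46 replicate 2 or 4 or si47 replicate 4 (adjusted p from 0.0515 to 0.288), and without si46 replicate 2 the value was 0.28.

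The lower gene was ICE2 (chr15:60419609-60479160, minus strand), a subunit of the little elongation complex that acts at snRNA genes. ICE2 was at 102, 122, 105 and 105 CPM in the control libraries and at 78.6 to 104 CPM in the knockdown libraries, of which 10 of 12 were below every control. The change was -0.24 on the log2 scale (SE 0.0760; adjusted p = 0.0487, edgeR), close to the threshold, and it no longer passed when any 1 of 13 libraries was left out. The exceptions were si45 replicate 3, si46 replicate 1 and si47 replicate 2, and without siNTC replicate 2, the highest library, the value was -0.17 (adjusted p = 0.265). Under si47 4 of the 52 passed, which is 7.69%, below the 9.74% of all genes tested. ZFC3H1 was higher, and ICE2 (-0.30, adjusted p = 0.0380), INIP (-0.37, adjusted p = 0.0195) and SNAPC1 (-0.43, adjusted p = 0.0362) were lower. INIP, a partner of INTS3 in a single-stranded DNA binding complex, and SNAPC1, a subunit of the snRNA-activating protein complex, are named after their values were seen. Under si47 the ICE2 call was lost without any 1 of siNTC replicates 2, 3 and 4 and si47 replicates 1, 3 and 4 (adjusted p up to 0.162). The INIP call was lost without siNTC replicate 4, si47 replicate 1 or si47 replicate 4 (up to 0.0791), and the SNAPC1 call without siNTC replicate 1, 3 or 4 or si47 replicate 1 or 2 (up to 0.1503). Under si46 1 of the 52 passed (1.92%, beside 3.4% of all genes), and under si45 none did (1.34% of all genes). At an unadjusted p under 0.05 there were 3 under si45, where 11.4% of all genes were under that limit, and 5 under si46 (15.0%). There were 13 under si47, beside 3310 of the 14193 genes tested, and 9 for the mean of the siRNAs, beside 2901.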

How the data were processed

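The values are raw counts, deposited by the authors as whole numbers in 1 table that covers 58787 Ensembl identifiers and 16 IMR32 libraries. Per the labels' protocols, libraries were made with the QuantSeq 3′ kit and 15 PCR cycles from total RNA. The submitters' processing notes name FastQC 0.11.7, STAR 2.7.2b, edgeR 3.36.0, limma 3.50.3 and GRCh38. The counter, the annotation, strand use and duplicate removal are not given in the sources used here. Reads of overlapping genes may therefore be mixed, and intervals cover the spread between these libraries only.

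Genes were matched by identifier to symbols (58434 matched) and to GENCODE 29 positions (58515 matched). Mitochondrial genes were not analysed here. Genes kept by filterByExpr (minimum count 10, minimum total 15) were scaled with TMM, and edgeR 4.0.16 (R 4.3.3) fitted the 4 group means together by robust quasi-likelihood. Contrasts were each siRNA and their mean against siNTC, and each pair of siRNAs. The standard error is the log2 fold change divided by the square root of F, and the 95% interval uses the fit's degrees of freedom. In counts simulated for si47 against siNTC, 200 of the 14193 genes were changed by 1 log2 unit, and 13935 genes passed the filter. Of the 200 genes 65.5% were recovered, with 4 false calls. That change is larger than those of the members that passed, so recovery of changes of their size was not measured. The 24 pairs of libraries within groups differed by 4.45 to 10.3 chi-square units per degree of freedom, so none was counted as a repeat of another.

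Alternatives were RLE size factors, DESeq2 1.42.0, 2 other filters, a replicate block, a fit of the 2 groups compared and leaving out each library. The deviations of same-numbered libraries from their group means correlated positively in every pair of groups. The values ran from 0.0188, between siNTC and si47, to 0.247, between si45 and si46. They were over 0.1 in all 4 pairs only between si45 and si47 (0.120 to 0.242), so a replicate effect shared more widely was not excluded. The labels state no pairing. No member passed the test between si45 and si47 with or without the block.

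The 37 genes and the lists of related genes and markers were chosen with earlier results of these data known. Named with values in every library were the members that passed in any contrast and, in each role with none, the member with the largest change of the mean. Of the related genes, those that passed for the mean were named.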

Additional observations from a re-analysis of the deposited data

Results flagged for a closer look

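In 11 of 164 sets of 4 libraries examined (41 genes in each of the 4 groups), 1 library stood apart from the other 3 by Dixon's criterion at its 95% level. Chance gives about 1 in 20, or 8.2 sets. Among exosome genes, EXOSC1 was at 49.4 CPM in si47 replicate 1 (others 34.4 to 34.7), ZCCHC8 at 26.9 CPM in si45 replicate 3 (others 36.2 to 38.1), and RBM7 at 5.59 CPM in si46 replicate 4 (others 3.46 to 3.80). Among tailing and trimming enzymes, TENT4B was at 124 CPM in si46 replicate 1 (others 107 to 109), and PARN at 33.0 CPM in si46 replicate 3 (others 42.7 to 43.4). Among Integrator subunits, INTS2 was at 36.96 CPM in si47 replicate 3 (others 30.2 to 31.2), INTS7 at 46.2 CPM in si46 replicate 2 (others 53.7 to 55.2), and INTS9 at 4.10 CPM in si46 replicate 4 (others 5.05 to 5.09). Outside the 37 genes, TPX2 was at 121 CPM in si45 replicate 3 (others 79.4 to 85.1), ZFC3H1 at 118 CPM in si46 replicate 2 (others 79.9 to 86.2), and ICE2 at 122 CPM in siNTC replicate 2 (others 102 to 105). Without siNTC replicate 2 the ICE2 call for the mean of the siRNAs was lost, and without si46 replicate 2 the ZFC3H1 call under si46.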

How the results depend on the processing

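Among the 37 genes, the 0 calls under si45 became 1 (INTS6) with no filter on low counts (1.23% of all genes) and 1 with the replicate block (4.07%). The 0 calls under si46 became 1 (INTS6) by DESeq2 (4.52% of all genes), with no filter (2.38%) and with only the 2 groups compared (4.75%). With the block they became 2 (INTS6 and EXOSC9), beside 7.56% of all genes. Leaving out 1 library gave 0 calls under si45, 0 to 1 under si46, 0 to 4 under si47, 0 to 3 for the mean of the siRNAs, and 0 between any 2 siRNAs. Over all genes tested the shares were then 0.672 to 2.8% under si45, 1.74 to 4.0% under si46 and 6.46 to 11.5% under si47. They were 4.35 to 9.58% for the mean and at most 1.02% between any 2 siRNAs. Of the 52 related genes, DESeq2 and the block each called 2 under si46 (1 otherwise), the block called 9 under si47 (4 otherwise), and for the mean the block called 4, and each other filter 1 (2 otherwise). Leaving out 1 library gave 0 to 1 of these under si45 and under si46, 1 to 4 under si47 and 0 to 4 for the mean, beside the shares over all genes given above. TPX2 ranged from -2.07 to -1.97. The replicate block also raised the counts over all genes, from 190 to 577 under si45, 482 to 1073 (7.56%) under si46, 1382 to 2198 (15.5%) under si47 and 1014 to 1817 (12.8%) for the mean, and the cause was not tested. EXOSC2 passed for the mean with the block (adjusted p = 0.0151). The EXOSC9 call under si47 was lost with no filter (adjusted p = 0.0679), with at least 10 counts in every library (0.0515) and with only the 2 groups compared (0.0570), and ICE2 was lost for the mean under both filters (0.0949 and 0.0551). Values near 0 changed sign: SSB was 0.0038 with at least 10 counts in every library, and leaving out 1 library gave EXOSC1 -0.063 to 0.019, EXOSC5 -0.080 to 0.029, EXOSC6 -0.13 to 0.00074, EXOSC10 -0.087 to 0.017, RBM7 -0.12 to 0.31, TENT4A -0.17 to 0.040, TENT4B -0.055 to 0.037, PARN -0.017 to 0.15, SSB -0.023 to 0.029, INTS11 -0.062 to 0.24 and INTS13 -0.10 to 0.033. None of these was called. A fit of only the 2 groups compared does not apply to the mean of the siRNAs, and members under 10 counts in a library have no value under the stricter filter. RBM7, with 7 to 26 counts in a control library, had the fewest counts.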
